A study of Mus musculus with 44 samples.

Results

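Trbj1-1 to Trbj1-6 are 6 joining (J) genes of the Trbj1 cluster of the mouse T cell receptor β chain. They were followed in T cell receptor sequencing libraries of 44 subcutaneous B16F10 melanomas, 15 from mice given AC484, 15 given anti-PD-1 and 14 given vehicle. All mice were wild-type C57BL/6 by the labels, C57BL/6J in the methods, and tissue was taken on day 12, with 1 library per bulk tumour. AC484 is an inhibitor of the phosphatases PTPN2 and PTPN1, anti-PD-1 is an antibody against a T cell checkpoint receptor, and the study's methods describe the vehicle group as untreated. By the study's general methods mice for tumour challenges were age-matched young adults. The doses those methods give are not repeated here. B16F10 is a single transplanted cell line, so the tumours share their origin. The deposited table lists amino acid CDR3s, the loop that contacts the peptide, with a read count for each, and names no J gene. A CDR3 was therefore given to a J gene by the last residues it must end in. The ends were TEVFF for Trbj1-1, SDYTF for Trbj1-2, GNTLYF for Trbj1-3, ERLFF for Trbj1-4, QAPLF for Trbj1-5 and NSPLYF for Trbj1-6. Of 170818 CDR3 entries of both chains, 95913 ended in 1 of the 12 Trbj ends of the rule and are called TRB here, and 32872 of those (34.3%) were Trbj1 entries. Of the TRB reads 38.2% belonged to them.

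A β chain is assembled in the thymus in steps. A D gene is first joined to a J gene, and a V gene is then joined to that DJ unit, with bases trimmed from and added to the ends. The mouse locus carries the Trbj1 genes between the D genes Trbd1 and Trbd2, and the Trbj2 genes after Trbd2. Trbd1 can therefore be joined to either cluster by deletion of the DNA between, whereas a Trbj1 gene lies upstream of Trbd2. The J gene supplies the end of the CDR3 and the framework stretch after it. In a tumour the share of distinct CDR3s with a J gene reflects how many different rearrangements carry it, and its share of reads also depends on how far single T cell clones have expanded.

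In the GENCODE annotation of GRCm38 the 6 genes lie on the plus strand of chromosome 6 within 1743 bases, at chr6:41533864-41535606. Trbd1 (chr6:41533201-41533212) ends 651 bases before Trbj1-1, and Trbd2 (chr6:41542163-41542176) starts 6556 bases after Trbj1-6. The annotation also lists Trbj1-7 in this interval, at chr6:41535642-41535687. The rule has no end for it, so it was not analysed here. The germline J segments are shown because the capitals, the codons of each end used by the rule, decide which CDR3s were counted.
Trbj1-1: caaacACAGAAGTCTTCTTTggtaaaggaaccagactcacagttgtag
Trbj1-2: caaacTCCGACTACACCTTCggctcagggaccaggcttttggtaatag
Trbj1-3: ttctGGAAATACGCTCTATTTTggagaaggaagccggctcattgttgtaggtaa
Trbj1-4: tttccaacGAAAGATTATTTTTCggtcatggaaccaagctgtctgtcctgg
Trbj1-5: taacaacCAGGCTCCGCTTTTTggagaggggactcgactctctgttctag
Trbj1-6: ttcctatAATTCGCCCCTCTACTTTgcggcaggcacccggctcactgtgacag

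The rule asks for 6 residues of Trbj1-3 and Trbj1-6 and for 5 of the other members, so more trimming is tolerated in some genes than in others, and levels between genes carry that difference. Ending in at least 4 germline residues was a looser alternative. It would add 1270 entries to Trbj1-1, 412 to Trbj1-6, 179 to Trbj1-5, 172 to Trbj1-2, 56 to Trbj1-4 and 0 to Trbj1-3. Another 2595 entries ended in TLYF outside the rule, an end that Trbj1-3 shares with 2 Trbj2 genes, and were assigned to none. Of the Trbj1 entries 97.7% began with residues of a TRBV gene, as did 97.7% of the Trbj2 entries.

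Each J gene is preceded by a recombination signal, which the RAG enzymes bind and cut. Here it was read as a nonamer, a spacer of 12 bases and a heptamer that touches the gene. The 28 bases before 3 genes are shown because they hold the most used member (Trbj1-1), the least used one (Trbj1-5) and the one with the nearest-to-threshold comparison (Trbj1-6), with nonamer and heptamer in capitals.
Trbj1-1 signal: ATTTTTCTCctcatcctatggCACTGTG
Trbj1-5 signal: GAGTTTGTCaccctcatgttgTACTGTG
Trbj1-6 signal: GGTTTTACCaaggccacctgcAGCTGTG

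Against the consensus heptamer CACTGTG and nonamer GGTTTTTGT, read at these fixed positions on the gene's strand, all 7 heptamer bases stood before 1 of the 12 Trbj genes of the rule, Trbj1-1, and all 9 nonamer bases before 0 of them. Trbj1-1 matched 4 nonamer bases, Trbj1-5 matched 6 heptamer and 4 nonamer bases, and Trbj1-6 matched 5 and 6. The members not shown matched 4 and 4 (Trbj1-2), 5 and 6 (Trbj1-3) and 4 and 5 (Trbj1-4). These are letter counts over 6 members and were not set against usage in a test.

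The libraries differed in depth. TRB reads per tumour ranged from 32948 to 407156 under AC484, from 58534 to 399662 under anti-PD-1 and from 5060 to 188185 under vehicle. Distinct TRB CDR3s ranged from 1971 to 8300, from 698 to 3499 and from 108 to 1383 in the same order of groups, so Trbj1 shares were most precise under AC484 and least under vehicle. Index primer sets ran nearly along the treatments: set 4 held 8 AC484 tumours, set 3 held 7 AC484 and 5 anti-PD-1 tumours, set 2 held 10 anti-PD-1 and 2 vehicle tumours, and set 1 held 12 vehicle tumours. AC484 and vehicle shared no set, so for that pair index set and treatment cannot be told apart within a set. Tumours shared at most 21.2% of the smaller library's TRB CDR3s, and no library was a copy of another. In bulk tissue fewer T cells and less receptor RNA per cell cannot be told apart, and shares are silent on both.

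The cluster supplied a similar part of the β chain repertoire in every treatment. It held 34.2% ± 1.34 of the distinct TRB CDR3s in AC484-treated tumours, 34.6% ± 1.32 in anti-PD-1-treated tumours and 35.3% ± 2.96 in vehicle-treated tumours (SD, n = 15, 15 and 14). Single tumours ranged from 30.4 to 35.6% under AC484, from 33.1 to 38.5% under anti-PD-1 and from 30.2 to 40.0% under vehicle, and the 3 groups overlapped throughout. The highest value, 40.0% in vehicle tumour 2, came from 92 of 230 CDR3s (95% Wilson interval 33.9 to 46.5%). The lowest, 30.2% in vehicle tumour 8, came from 155 of 514 (26.4 to 34.3%). Intervals cover counting error only, since reads carry no molecular identifiers. Binomial counting alone would give SDs of 0.853, 1.17 and 2.56 percentage points in the 3 treatments, below the observed SD in each. Vehicle libraries were smaller, and the cause of their wider spread was not tested.

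Within the cluster the genes were used unequally, in nearly the same order in each treatment. Trbj1-1, the member next to Trbd1, led with 9.71% ± 0.858 of distinct TRB CDR3s under AC484, 9.69% ± 0.694 under anti-PD-1 and 9.28% ± 2.18 under vehicle. Trbj1-4 followed with 6.93% ± 0.610, 7.05% ± 0.688 and 7.23% ± 1.39 in the same order. Trbj1-2 held 5.96% ± 0.294, 5.80% ± 0.604 and 6.47% ± 1.76. Trbj1-3 held 5.78% ± 0.397 under AC484, 6.07% ± 0.467 under anti-PD-1 and 6.27% ± 0.885 under vehicle. Both genes at the far end of the cluster were used least. Trbj1-6 supplied 3.09% ± 0.308, 3.39% ± 0.434 and 3.62% ± 1.22, and Trbj1-5 supplied 2.73% ± 0.279, 2.65% ± 0.337 and 2.48% ± 0.901 (SD, n = 15, 15 and 14).

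Neighbours in this order were compared within tumours by paired two-sided sign-flip permutation tests, exact over the 14 or 15 tumours of a treatment and adjusted over 15 pairs. Trbj1-1 exceeded Trbj1-4 in 15 of 15 AC484, 15 of 15 anti-PD-1 and 12 of 14 vehicle tumours (differences of 2.79, 2.65 and 2.05 percentage points, exact permutation adjusted p = 0.00023, 0.00023 and 0.020). Trbj1-2 and Trbj1-3 changed places between treatments and their difference did not pass in any of them, with adjusted p = 0.14, 0.25 and 0.73 by exact permutation. Trbj1-4 exceeded the next gene by 0.964 points under AC484 and 0.978 points under anti-PD-1 (exact permutation adjusted p = 0.00078 and 0.00037), and the 0.761 points under vehicle did not pass (0.12). The step down to Trbj1-6 was 2.69, 2.41 and 2.65 points and passed in all 3 treatments (exact permutation adjusted p = 0.00023, 0.00023 and 0.00092). Trbj1-6 exceeded Trbj1-5 by 0.362 points in 12 of 15 AC484 tumours, by 0.745 points in 13 of 15 anti-PD-1 tumours and by 1.14 points in 10 of 14 vehicle tumours (exact permutation adjusted p = 0.024, 0.00061 and 0.026). On the looser ends Trbj1-6 still had more entries than Trbj1-5, 3476 against 2769.

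The extremes of all 6 genes lay in vehicle-treated tumours. Trbj1-1 was lowest in vehicle tumour 5, at 4.63%, and highest in vehicle tumour 6, at 13.9%. Vehicle tumour 5, with the fewest distinct TRB CDR3s, also gave the highest Trbj1-2 share, 11.1%, and the highest Trbj1-6 share, 6.48%. Trbj1-2 was lowest in vehicle tumour 14, at 4.22%, and Trbj1-6 in vehicle tumour 10, at 2.17%. Trbj1-3 ranged between 4.38% in vehicle tumour 12 and 7.58% in vehicle tumour 4, and Trbj1-4 between 4.71% in vehicle tumour 12 and 9.27% in vehicle tumour 6. Trbj1-5 was highest at 3.47% in vehicle tumour 3. It was counted 0 times among the 151 TRB CDR3s of vehicle tumour 6, which allows a share of up to 1.99% when 0 is read as at most 3 counts (95% Wilson upper limit 2.48%).

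**Figure D1:**
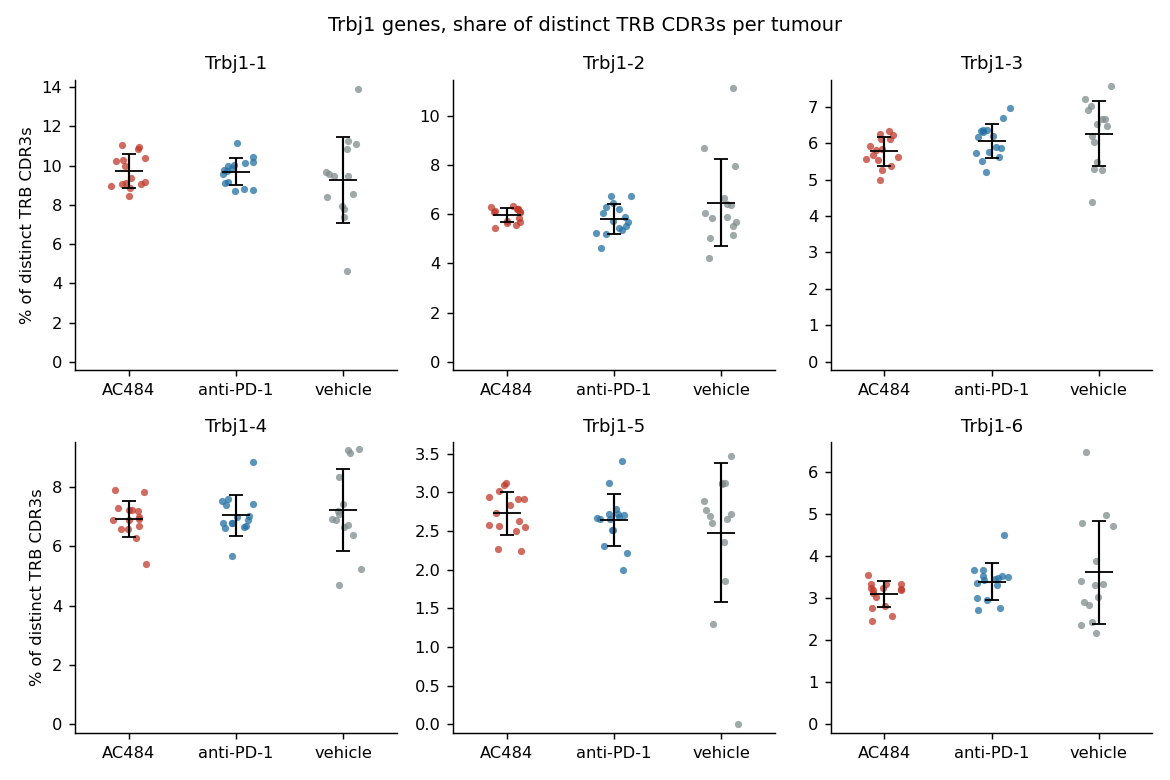
Percent of distinct TRB CDR3s (y axis, linear, 1 scale per panel) for each Trbj1 gene, 1 point per tumour, by treatment (x axis), with the mean and SD as black lines. All AC484 and anti-PD-1 points lie within the range of the vehicle points, and vehicle points spread most, between 4.63 and 13.9% for Trbj1-1.

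Treatments were compared gene by gene with edgeR's quasi-likelihood test on numbers of distinct CDR3s, scaled to the distinct TRB CDR3s of a tumour and adjusted over the 12 Trbj genes. No Trbj1 gene passed an adjusted p of 0.05 between AC484 and vehicle (0 of 6, against 0% of the 12 genes tested), nor between AC484 and anti-PD-1 (0 of 6, against 16.7%), nor between anti-PD-1 and vehicle (0 of 6, against 0%). At an unadjusted edgeR p under 0.05 the counts of Trbj1 genes were 0, 1 and 0 in the same order, beside 2, 5 and 0 of all 12 genes. DESeq2 called 0 of 6 in each comparison, and 1 of all 12 genes between AC484 and anti-PD-1. The 2 genes called by edgeR between AC484 and anti-PD-1 belong to the other cluster, Trbj2-1 (log2 fold change 0.10 ± 0.0291 SE) and Trbj2-5 (−0.10 ± 0.0311), each with an edgeR adjusted p of 0.0098.

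Between AC484 and vehicle the log2 fold changes of the 6 genes lay between −0.12 for Trbj1-3 (SE 0.0685, edgeR adjusted p = 0.26) and 0.08 for Trbj1-2 (SE 0.0704, adjusted p = 0.67). Their median was −0.01, against 0.01 over all 12 genes. Between anti-PD-1 and vehicle they lay between −0.07 for Trbj1-5 (SE 0.108) and 0.09 for Trbj1-6 (SE 0.0982), with a median of 0.01 beside 0.01 over all genes, and the lowest edgeR adjusted p was 0.86. Standard errors between 0.0558 and 0.108 in the vehicle comparisons limit what could be seen there. The fit weights a tumour by its number of CDR3s. The unweighted means of Trbj1-2 differed by −0.503 percentage points between AC484 and vehicle, opposite in sign to the fitted value.

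The difference nearest to the threshold was that of Trbj1-6 between AC484 and anti-PD-1. Its share lay between 2.45 and 3.55% (median 3.20%) under AC484, against 2.72 to 4.50% with a median of 3.45% under anti-PD-1. The 2 ranges overlapped, between 2.72 and 3.55%. The log2 fold change was −0.14 ± 0.0578 SE with an edgeR adjusted p of 0.054. Leaving out 1 tumour moved it between −0.17 and −0.12 and brought the adjusted p under 0.05 in 10 of 30 cases, without AC484 tumours 2, 8, 9, 12 or 13 or anti-PD-1 tumours 6, 7, 13, 14 or 15, with 0.021 as the lowest. It passed without near-copies of abundant CDR3s (adjusted p = 0.039) and without libraries under 3.5 nM (adjusted p = 0.034), and missed the threshold in every other setting tried. Within index set 3, which held 7 AC484 and 5 anti-PD-1 tumours, the log2 fold change was −0.16 ± 0.110 SE (edgeR adjusted p = 0.45). For the other 5 members the log2 fold changes between AC484 and anti-PD-1 lay between −0.06 and 0.06. Within index set 2, which held 10 anti-PD-1 and 2 vehicle tumours, Trbj1-6 had a log2 fold change of 0.54 ± 0.209 SE (edgeR adjusted p = 0.19).

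**Figure D2:**
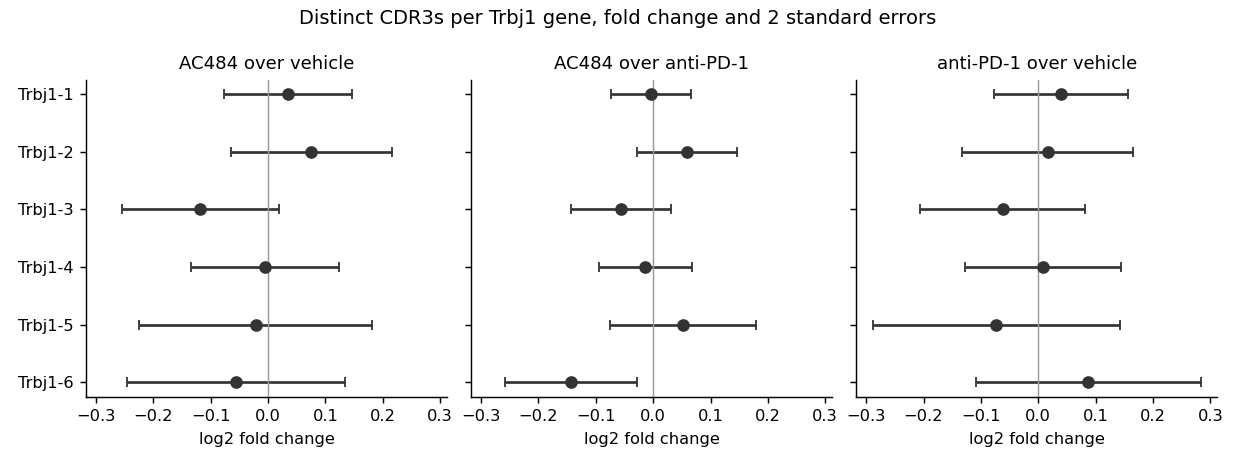
Log2 fold change (x axis) of the number of distinct CDR3s of each Trbj1 gene (y axis) in the 3 comparisons, from edgeR, with bars of 2 standard errors on each side. Bars cross 0 for every gene except Trbj1-6 between AC484 and anti-PD-1, at −0.14, whose adjusted p was 0.054.

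Counted by reads, the same genes varied far more from tumour to tumour. The cluster held 37.0% ± 16.03 of TRB reads under AC484, 36.3% ± 10.1 under anti-PD-1 and 43.6% ± 16.9 under vehicle (SD, n = 15, 15 and 14). The range was 14.7 to 82.3% under AC484 (median 35.8%), 25.9 to 64.6% under anti-PD-1 (median 33.9%) and 15.3 to 73.1% under vehicle (median 42.9%). More than 50% of TRB reads were Trbj1 reads in 2 of 15 AC484, 1 of 15 anti-PD-1 and 6 of 14 vehicle tumours. These cluster shares are given as descriptions, with no test.

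For single genes the read shares were compared with two-sided permutation tests of 100000 resamples. No gene passed after adjustment over 12 genes: 0 of 6 Trbj1 genes in each of the 3 comparisons, against 0% of all genes in each. The methods' t-test, after the same adjustment, also called 0. At an unadjusted p under 0.05 by permutation, of all 12 genes 0 passed between AC484 and vehicle and 1 between AC484 and anti-PD-1. Between anti-PD-1 and vehicle 1 passed. Of these, 1 was a Trbj1 gene, Trbj1-6 between AC484 and anti-PD-1. It ranged from 0.665 to 4.16% of reads (median 1.95%) under AC484, from 0.720 to 19.3% (median 2.79%) under anti-PD-1 and from 0.794 to 36.1% (median 2.26%) under vehicle. Its mean under AC484 differed by −2.72 percentage points from that under anti-PD-1 (permutation p = 0.029, adjusted p = 0.34) and by −5.53 points from that under vehicle (permutation p = 0.057, adjusted p = 0.54). Within index set 3 the first difference was −3.54 points over 7 AC484 and 5 anti-PD-1 tumours (exact permutation p = 0.21). The second became 0.209 points with the largest CDR3 of each tumour left out. High values came from few tumours, such as vehicle tumour 1 at 36.1%.

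Trbj1-1 had the highest median read share of the members in all 3 treatments, 9.20% under AC484, 9.96% under anti-PD-1 and 11.7% under vehicle, and ranged up to 40.1% in vehicle tumour 12. Trbj1-4 ranged between 2.31 and 55.8% (median 5.54%) under AC484, between 2.39 and 24.0% (median 6.33%) under anti-PD-1 and between 0.855 and 18.6% (median 4.63%) under vehicle. Its highest value stood in AC484 tumour 4. Trbj1-2 reached 13.0, 14.9 and 42.3% in the 3 treatments, the last in vehicle tumour 3, and Trbj1-3 reached 21.3, 13.2 and 24.6%. Trbj1-5 stayed lowest, with medians of 1.11, 0.901 and 1.01% and its highest share, 10.8%, in anti-PD-1 tumour 6. By reads fewer neighbours differed: 1 of 5 pairs under AC484, 0 of 5 under anti-PD-1 and 1 of 5 under vehicle, against 4, 4 and 3 by distinct CDR3s. Neighbours were taken in the order of mean read shares, so the pairs are not all the same. Those that differed were Trbj1-2 over Trbj1-6 under AC484 and Trbj1-3 over Trbj1-5 under vehicle (exact permutation adjusted p = 0.010 and 0.0037).

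**Figure D3:**
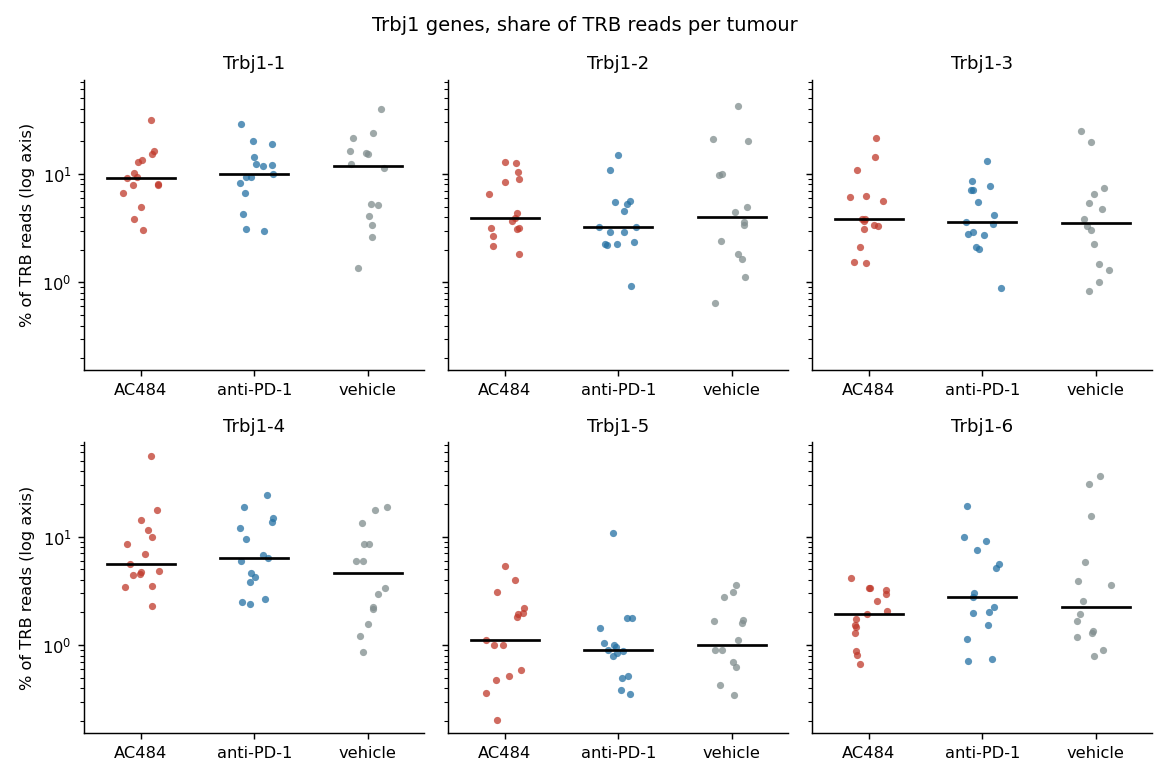
Percent of TRB reads (y axis, log scale) for each Trbj1 gene, 1 point per tumour, by treatment (x axis), with the median as a black line. Vehicle tumour 6, with 0 reads of Trbj1-5, cannot be drawn on this axis. The groups overlap in all 6 panels, and the highest point is Trbj1-4 in AC484 tumour 4, at 55.8%.

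Single CDR3s held a large part of the TRB reads in some tumours. The cluster held 34.3% of the TRB entries and 38.2% of the TRB reads of the series. The most abundant TRB CDR3 of a tumour carried a Trbj1 gene in 16 of 44 tumours. By treatment it did so in 5 of 15 AC484 tumours, 4 of 15 anti-PD-1 tumours and 7 of 14 vehicle tumours. Under AC484 these were Trbj1-4 CDR3s in tumours 4 (54.3% of TRB reads) and 6 (15.7%), Trbj1-1 CDR3s in tumours 7 (8.83%) and 11 (22.7%), and a Trbj1-3 CDR3 in tumour 3 (19.6%). Under anti-PD-1 they were Trbj1-1 CDR3s in tumours 1 (9.10%) and 15 (14.0%) and Trbj1-4 CDR3s in tumours 12 (14.8%) and 13 (22.1%). Under vehicle they were Trbj1-6 CDR3s in tumours 1 (35.4%), 6 (14.9%) and 13 (29.9%), Trbj1-2 CDR3s in tumours 2 (18.8%) and 3 (39.9%), a Trbj1-1 CDR3 in tumour 12 (32.0%) and a Trbj1-3 CDR3 in tumour 9 (17.3%). Trbj1-5 led in 0 of 44 tumours.

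These 16 CDR3s were all different, and each was also listed in at least 1 other tumour. Of the 16, 2 reached at least 1% of TRB reads elsewhere, the Trbj1-2 CDR3 of vehicle tumour 2, at up to 15.1%, and the Trbj1-1 CDR3 of vehicle tumour 12, at up to 7.00%. The Trbj1-4 CDR3 that filled 54.3% of AC484 tumour 4 was listed in 20 other tumours, at 0.386% or less. Of these, 11 were in its own index set, which is every other tumour of that set. With counts under 1 percent of the same CDR3's highest count in any tumour left out, 4219 of the 95913 TRB entries, 0 of 6 Trbj1 genes were called in each comparison by edgeR or by reads. With each tumour's largest CDR3 left out the cluster share was 35.9% ± 10.7 under AC484, 40.2% ± 9.49 under anti-PD-1 and 38.9% ± 11.6 under vehicle. With the 10 largest left out it was 36.5% ± 4.86, 36.9% ± 4.13 and 34.5% ± 6.17 (SD, n = 15, 15 and 14), with ranges of 26.1 to 43.8%, 31.2 to 44.8% and 23.5 to 48.4%.

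**Figure D4:**
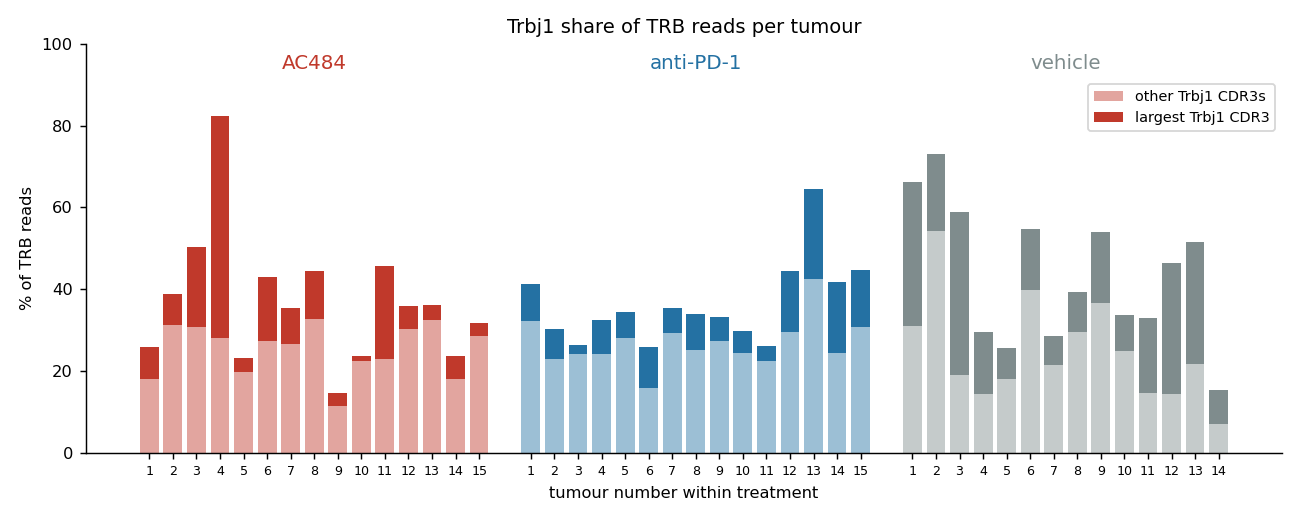
Trbj1 share of TRB reads (y axis, percent) in each tumour (x axis, tumour number within treatment), with the largest Trbj1 CDR3 of the tumour in the dark part and the other Trbj1 CDR3s in the light part. The tallest bar is AC484 tumour 4, at 82.3%, of which 54.3% is 1 CDR3.

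The CDR3s of both clusters were then compared within tumours by paired two-sided sign-flip permutation tests over 44 tumours, adjusted over 11 measures. Of these, the whole germline J end and CDR3 length include the residues used by the rule, and the others do not. The first was the D gene. The germline D segments are shown because their reading frames give the residue runs that were searched.
Trbd1: gggacagggggc
Trbd2: gggactgggggggc

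Trbd1 reads GTGG, GQG or DRG in its 3 frames, and Trbd2 reads GTGG, GLGG or DWGG. Runs that can be read from Trbd2 and not from Trbd1 (WGG, DWGG or GLGG, between the CDR3 start and the J end) were almost missing from the cluster. They stood in 0.187% ± 0.210 of Trbj1 CDR3s, against 8.27% ± 1.32 of Trbj2 CDR3s (SD over 44 tumours), and were lower with Trbj1 in 44 of 44 tumours (permutation p = 1e-05, the smallest these resamples can give, adjusted p = 2.7e-05). Over all different CDR3s of the series, 64 of 25411 Trbj1 CDR3s had such a run, against 3607 of 47354 Trbj2 CDR3s. The shares with Trbj1 were 0.211, 0.208 and 0.139% in AC484-, anti-PD-1- and vehicle-treated tumours, against 8.15, 8.22 and 8.46% with Trbj2.

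Of the 64, 28 ended in GNTLYF and were counted to Trbj1-3. Trbj1-3 had the run in 0.652% of its different CDR3s, and the other 5 members in 0.0760 to 0.277%. GNTLYF can also arise where a G precedes the last residues, NTLYF, of a trimmed Trbj2-4, and Trbd2 ends in a row of G. Among Trbj1-3 CDR3s that kept the whole germline end, which starts with S before the G, 4 of 2502 (0.160%, exact 95% interval 0.0436 to 0.409%) had the run. Among those with another residue there it was 24 of 1791 (1.34%, 0.860 to 1.99%). In the other 5 members the share in trimmed ends was at most 0.309%. The part of Trbj2-4 in the Trbj1-3 count was not tested beyond this.

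Runs of Trbd1 gave the opposite picture once the frame shared by both D genes was left out and the other runs were shortened. DRG, or GQG not preceded by L, stood in 8.31% ± 1.78 of Trbj1 CDR3s, against 3.88% ± 0.815 of Trbj2 CDR3s, and was higher with Trbj1 in 43 of 44 tumours (permutation p = 1e-05, adjusted p = 2.7e-05). These runs were chosen after seeing the data, because the list planned for Trbd1 (GTGG, DRGG and GQGG) holds GTGG, which Trbd2 also reads. The last G of DRGG and GQGG was dropped as well, and which of these changes turned the sign was not tested. On the planned list Trbj1 was lower, at 1.91% ± 0.636 against 2.46% ± 0.698 with Trbj2 (permutation adjusted p = 2.7e-05). Over different CDR3s the DRG or GQG share was 7.72% with Trbj1-1, 8.20% with Trbj1-2, 7.90% with Trbj1-3, 10.1% with Trbj1-4, 7.97% with Trbj1-5 and 8.27% with Trbj1-6, against 3.14 to 5.18% in the Trbj2 genes. In each of the 6 members the share was higher among trimmed than among whole J ends, 14.2% against 4.59% for Trbj1-4 and 9.91% against 3.83% for Trbj1-6, over different CDR3s and without a test. A residue run does not prove which D gene was used, since added bases can spell it too.

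**Figure D5:**
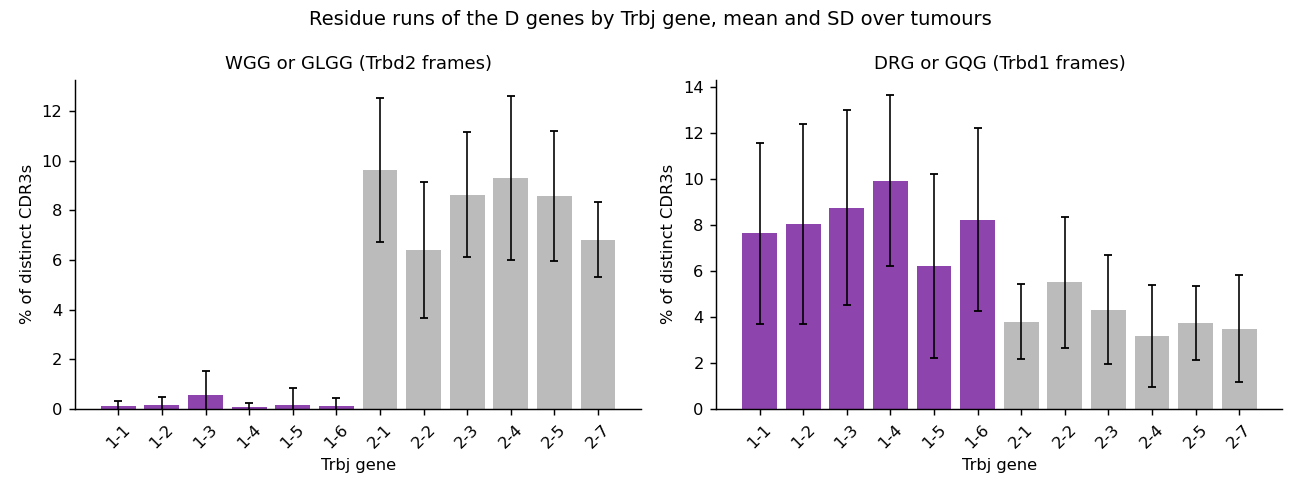
Percent of distinct CDR3s (y axis) with a Trbd2 run (left panel) and with DRG or GQG (right panel) for each Trbj gene (x axis), as the mean over tumours with SD bars, which are cut at 0. Purple bars are the Trbj1 genes and grey bars the Trbj2 genes. In the left panel the highest Trbj1 bar is Trbj1-3, at 0.545%, and the lowest Trbj2 bar stands at 6.39%.

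The germline end was kept to very different degrees within the cluster. The whole end stood in 67.4% ± 7.31 of Trbj1-2, 60.2% ± 6.76 of Trbj1-3, 58.7% ± 5.50 of Trbj1-1 and 44.3% ± 6.83 of Trbj1-4 CDR3s per tumour (SD over 44 tumours). It stood in 36.1% ± 11.5 of Trbj1-5 CDR3s (43 tumours) and in 25.9% ± 8.91 of Trbj1-6 CDR3s. These shares are not all on 1 footing, since 1 residue lies between the rule's end and the whole end in Trbj1-1, Trbj1-2 and Trbj1-3, and 2 in Trbj1-4, Trbj1-5 and Trbj1-6. Among Trbj1-4, Trbj1-5 and Trbj1-6, which share that number of residues, Trbj1-4 kept its end most often. Even these are not fully comparable. Trbj1-4 has more germline bases before the rule's end than the other 2, and the rule asks for a longer end of Trbj1-6. As a cluster Trbj1 kept it more often than Trbj2, 52.7% ± 1.70 against 37.1% ± 2.46 and in 44 of 44 tumours (permutation adjusted p = 2.7e-05), a comparison that carries the same difference in residues. Most Trbj2 genes have 2 residues there, against 1 in Trbj1-1, Trbj1-2 and Trbj1-3. The test therefore cannot tell less trimming with Trbj1 from the rule itself.

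Mean CDR3 length was 13.9 ± 0.0723 residues with Trbj1 and 14.2 ± 0.0768 with Trbj2, and shorter with Trbj1 in 42 of 44 tumours (difference of −0.234 residues, permutation adjusted p = 2.7e-05). The members differed more among themselves, between 13.5 ± 0.127 residues for Trbj1-1 and 14.4 ± 0.267 for Trbj1-6, and the J ends themselves run from 6 germline residues in Trbj1-1 and Trbj1-2 to 8 in Trbj1-6. Over different CDR3s the lengths ranged from 7 to 22 residues for Trbj1-1 and from 8 to 27 for Trbj1-2.

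Taken as a cluster, Trbj1 CDR3s were shared between tumours slightly less often than Trbj2 CDR3s. In a tumour 39.2% ± 9.30 of Trbj1 CDR3s were also found in another tumour, against 41.6% ± 8.84 of Trbj2 CDR3s, lower in 37 of 44 tumours (permutation p = 4e-05, adjusted p = 8.8e-05). In vehicle-treated tumours alone the difference of −2.04 percentage points did not pass (exact permutation adjusted p = 0.25, 14 tumours). Among the members sharing was highest for Trbj1-1, at 44.2% ± 12.0, and Trbj1-3, at 43.2% ± 12.0, and lowest for Trbj1-5, at 27.7% ± 14.7. Of the different CDR3s of the series, 31 with Trbj1-1, 15 with Trbj1-2, 12 with Trbj1-3, 16 with Trbj1-4, 2 with Trbj1-5 and 5 with Trbj1-6 were listed in 10 or more tumours, against 7 to 70 for single Trbj2 genes. Within the cluster the widest spread was that of a Trbj1-3 CDR3 in 32 tumours, and the most widespread Trbj1-5 CDR3 was listed in 25. The most widespread Trbj2 CDR3, a Trbj2-4 CDR3, was listed in 39. A CDR3 counted as shared at any read count, and carry-over between libraries was not removed from these sharing numbers. How much of the sharing it made up was not tested.

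TRBV pairing was read only for starts assigned to 1 TRBV gene or class. The G of CASG can also come from a D gene or from added bases, so CASG need not be Trbv13-2. The Trbv1 start CTC stood in 6.23% ± 1.35 of Trbj1 CDR3s, against 5.52% ± 1.03 of Trbj2 CDR3s, higher in 34 of 44 tumours (permutation adjusted p = 0.019). The Trbv20 start CGA was lower with Trbj1, at 3.73% ± 0.904 against 4.24% ± 1.07, in 32 of 44 tumours (permutation adjusted p = 0.033). Neither difference held in all settings tried. The Trbv13-2 start CASG (9.26% with Trbj1, 9.58% with Trbj2), the Trbv31 start CAW (3.72 and 3.79%) and the Trbv23 or Trbv30 start CSS (0.866 and 0.734%) did not pass, with adjusted p between 0.30 and 0.81 by permutation. Reads per distinct CDR3 also did not pass, with means of 6.08 ± 1.55 for Trbj1 and 5.86 ± 1.37 for Trbj2 on the log2 scale (permutation adjusted p = 0.18).

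Shares of the 6 genes moved only loosely with those of other J genes over the 44 tumours. For each member the most similar of the other 11 genes was named by Spearman's rho of the percent of distinct CDR3s. It was Trbj1-4 for Trbj1-1 (0.06) and for Trbj1-3 (0.25), Trbj1-3 for Trbj1-4 (0.25), Trbj1-6 for Trbj1-2 (0.29), Trbj1-2 for Trbj1-6 (0.29) and Trbj2-2 for Trbj1-5 (0.35). The points share libraries and depth, and the shares of a tumour sum to 100%, so these are descriptions. The lowest value between 2 members was that of Trbj1-1 with Trbj1-3, −0.47.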

How the data were processed

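Bulk tumour RNA was made into T cell receptor libraries with the SMARTer Mouse TCR a/b kit, sequenced on an Illumina MiSeq and assembled into amino acid clonotypes with MiXCR by the authors. The deposited count is the number of reads per CDR3 and tumour, both chains in 1 table, whole numbers that had not been brought to equal depth. The submitters' processing notes name mm10, the build called GRCm38 here. The same table holds a library concentration in nM and an index primer set, both as the authors recorded them.

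A CDR3 was counted to a J gene where it ended in that gene's fixed residues. Of all entries 56.2%, with 70.2% of reads, ended in 1 of the 12 Trbj ends, and the others were left out. Entries at read count 1 were kept. Numbers of distinct CDR3s of the 12 genes, each with at least 100, were tested with edgeR 4.0.16 (quasi-likelihood, R 4.3.3) over all 44 tumours. The total of distinct TRB CDR3s served as library size, with 1 dispersion for all genes and Benjamini-Hochberg adjustment over 12 genes at 0.05. Read shares and paired comparisons used two-sided permutation tests (SciPy 1.17.1 and NumPy 2.4.6, 100000 resamples or exact). The scripts were tested on simulated data. DESeq2 1.42.0, the methods' t-test, TMM, equal depth (5060 reads, 100 draws), removal of near-copies and of carry-over, other read minimums, other J assignment, blocks and single tumours left out were alternatives.

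All 6 members were named, Trbj2 genes where they were called or most similar to a member, and tumours at the extremes. Members, lists and alternatives were chosen with earlier results of these data known. Numbers of tumours in the labels did not pair tumours across treatments. Germline bases came from RefSeq's GRCm38, and gene positions from the GENCODE annotation of that build. CDR3 sequences are not reported here.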

Additional observations from a re-analysis of the deposited data

How the results depend on the processing

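The absence of called Trbj1 genes was stable in most settings, and their signs changed more often. Over all settings other than leaving out 1 tumour, 347 of 432 gene-level values kept direction and side of the threshold, 83 changed sign and 2 passed. All 83 were uncalled before and after, and the cause was not tested. Between AC484 and anti-PD-1, 1 Trbj1 gene of 6 was called, Trbj1-6, with near-copies left out (log2 fold change −0.15) and with libraries under 3.5 nM left out (−0.18, chosen after seeing the data), and 0 to 1 with 1 tumour left out. Genes called of 12 between AC484 and anti-PD-1 were 1 with DESeq2, 0 with the index set as a block and 0 within 1 index set, against 2, and 2 to 4 with 1 tumour left out (4 without AC484 tumours 8 or 13 or anti-PD-1 tumours 7 or 15). Between AC484 and vehicle they were 2 by the permutation test of the percent, 2 by the methods' t-test, 2 at equal depth and 1 with libraries under 3.5 nM left out, against 0, and 0 to 2 with 1 tumour left out (1 without AC484 tumours 3, 4 or 8 or vehicle tumours 3, 9, 10 or 11, and 2 without vehicle tumour 14). The unfiltered fit gave the same genes, since all 12 passed the minimum. By reads, neighbours in the order of mean read shares that differed were 1 under AC484, 0 under anti-PD-1 and 1 under vehicle. By distinct CDR3s, in their own order, they were 4, 4 and 3.

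Same-numbered tumours deviated together, with a correlation over 0.1, in 6 of 15, 2 of 14 and 5 of 14 pairs, so the numbers were not taken as a pairing. With the replicate block Trbj1-6 between AC484 and anti-PD-1 had an adjusted p of 0.10, Trbj1-4 between anti-PD-1 and vehicle reversed to −0.014, and 0 Trbj1 genes were called.

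Sign changes by distinct CDR3s were these. As differences of unweighted percents, tested by permutation or by the methods' t-test, Trbj1-1 had 0.022 between AC484 and anti-PD-1. Trbj1-2 had −0.50 and Trbj1-5 0.25 between AC484 and vehicle. Trbj1-2 had −0.66, Trbj1-4 −0.18, Trbj1-5 0.17 and Trbj1-6 −0.23 between anti-PD-1 and vehicle. At equal depth Trbj1-1 had 0.485, Trbj1-2 −0.072 and Trbj1-4 0.11 points between AC484 and anti-PD-1. Trbj1-2 had −0.38 and Trbj1-5 0.024 between AC484 and vehicle, and Trbj1-2 −0.30, Trbj1-4 −0.12, Trbj1-5 0.022 and Trbj1-6 −0.48 between anti-PD-1 and vehicle. The other values are log2 fold changes. For Trbj1-1 between AC484 and anti-PD-1 they were 0.0022 with TMM, 0.023 with DESeq2 and 0.014 with the longest germline match. For Trbj1-4 in that comparison they were 0.011 with DESeq2, 0.013 with at least 2 reads and 0.0055 with carry-over left out. For Trbj1-4 between AC484 and vehicle they were 0.0054 with TMM, 0.012 with DESeq2, 0.0030 with the longest match, 0.013 with at least 2 reads, 0.0047 with carry-over left out and 0.0017 with near-copies left out. For Trbj1-6 between AC484 and vehicle they were 0.011 with the longest match and 0.0095 with carry-over left out, and for Trbj1-1 −0.0048 with at least 2 reads. For Trbj1-4 between anti-PD-1 and vehicle they were −0.00068 with at least 2 reads and −0.00083 with carry-over left out. AC484 and vehicle shared no index set. Their contrast with the index set as a block ran through anti-PD-1 tumours and rested on the 2 vehicle tumours of set 2. With the index set as a block, Trbj1-1 had −0.13, Trbj1-5 0.21 and Trbj1-6 0.38 between AC484 and vehicle, and Trbj1-1 −0.046, Trbj1-4 −0.065 and Trbj1-5 0.11 between anti-PD-1 and vehicle. Within 1 index set that comparison gave −0.045, −0.065 and 0.11 for the same genes. Without libraries under 3.5 nM, Trbj1-1 had −0.027 and Trbj1-5 0.062 between AC484 and vehicle, and Trbj1-1 −0.020, Trbj1-2 −0.031, Trbj1-3 0.020, Trbj1-4 −0.049 and Trbj1-6 −0.072 between anti-PD-1 and vehicle. With 1 tumour left out, the values of genes that changed sign ranged from −0.016 to 0.0099 (Trbj1-1) and −0.033 to 0.0063 (Trbj1-4) between AC484 and anti-PD-1, from −0.028 to 0.014 (Trbj1-4) and −0.055 to 0.013 (Trbj1-5) between AC484 and vehicle, and from −0.043 to 0.038 (Trbj1-2) and −0.015 to 0.027 (Trbj1-4) between anti-PD-1 and vehicle.

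Sign changes by reads were these, in percentage points unless noted. Without the 10 largest CDR3s, Trbj1-1 had 2.58, Trbj1-2 −0.072, Trbj1-3 −0.89, Trbj1-4 −0.74 and Trbj1-5 −0.29 between AC484 and anti-PD-1, Trbj1-1 3.05 and Trbj1-5 −0.046 between AC484 and vehicle, and Trbj1-1 0.46 and Trbj1-6 0.96 between anti-PD-1 and vehicle. Without the largest CDR3, Trbj1-4 had −1.32 and Trbj1-5 −0.85 between AC484 and anti-PD-1, Trbj1-2 0.84, Trbj1-3 0.088, Trbj1-4 −1.58 and Trbj1-6 0.21 between AC484 and vehicle, and Trbj1-4 −0.27 and Trbj1-6 3.27 between anti-PD-1 and vehicle. With the longest match Trbj1-1 had 0.50 and Trbj1-5 −0.22 between AC484 and anti-PD-1. On the scale of log2(percent + 0.1), Trbj1-1 had 0.052, Trbj1-2 0.021 and Trbj1-3 0.28 between AC484 and vehicle, and Trbj1-1 0.13 and Trbj1-3 0.11 between anti-PD-1 and vehicle. Within 1 index set Trbj1-1 had 6.44 and Trbj1-3 2.05 in that comparison. With 1 tumour left out, values ranged from −2.25 to 0.46 (Trbj1-1), −1.54 to 2.78 (Trbj1-4) and −0.15 to 0.77 (Trbj1-5) between AC484 and anti-PD-1, from −3.47 to 0.10 (Trbj1-1) and −1.12 to 1.39 (Trbj1-3) between AC484 and vehicle, and from −2.47 to 0.89 (Trbj1-1), −1.76 to 0.25 (Trbj1-3) and −0.45 to 0.38 (Trbj1-5) between anti-PD-1 and vehicle.

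Between the clusters, Trbd2 runs, CDR3 length and the whole germline end kept direction and call in every setting tried. CDR3 length and the whole germline end include residues that the rule used. The difference in CDR3s found in another tumour was −2.04 points in vehicle tumours alone (adjusted p = 0.25). For CASG it was 0.077 in AC484 tumours alone and −0.58 in anti-PD-1 tumours alone (permutation adjusted p = 0.049). For CAW it was 0.076 with at least 2 reads, 0.29 in AC484 tumours alone and 0.32 in anti-PD-1 tumours alone. For CGA it was −0.45 with near-copies left out, −0.34 in AC484 tumours, −0.61 in vehicle tumours and −0.30 with the longest match, none past the threshold. For CSS it was −0.18 in AC484 tumours and 0.31 in anti-PD-1 tumours (adjusted p = 0.013 by permutation). For CTC it was 0.57 with at least 2 reads and 0.26 in vehicle tumours, neither past the threshold. The planned Trbd1 runs gave −0.50 in vehicle tumours (not past the threshold) and 4.43 with DRG and GQG in their place. Vehicle tumours, with 108 to 1383 distinct TRB CDR3s each, set the width of every comparison they entered, and J genes read from amino acid ends miss CDR3s trimmed into the end.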
